A study of Mus musculus with 9 samples.

Results

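Immortalized mouse podocytes that had received siRNA 1 against Usp40 were compared with podocytes that had received a control siRNA, across all genes with enough reads to be tested. The comparison holds 6 of the 9 libraries of the study, 3 with siRNA 1 and 3 with the control siRNA, chosen by the treatment named in their labels. The other 3 libraries, from cells given siRNA 2 against Usp40, helped to estimate the spread between libraries and are set beside siRNA 1 where that shows how far a change was shared. The cells are a cell line labelled wild-type, grown at 33 °C with interferon-γ and 10% fetal bovine serum, then kept at 37 °C without interferon-γ for 10 to 14 days so that they differentiated. All groups had this history, and all received their siRNA with the same lipid reagent. RNA was taken 48 h after transfection, 1250 ng per library went through poly(A) selection, and all libraries belong to batch 1. The labels call the 3 libraries of a group biological replicates without saying that they came from separate cultures, and the p-values therefore cover only the spread among these libraries, part of which may be technical.

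Podocytes are the epithelial cells that wrap the capillaries of the kidney filter, and their interlocking foot processes are joined by the slit diaphragm and held in shape by actin. Ubiquitin is a small protein that cells attach to other proteins to mark them for destruction or to change what they do, and Usp40 encodes a ubiquitin-specific protease, an enzyme family that removes it. An siRNA is a short RNA duplex that guides the Argonaute complex to a matching mRNA and lowers its level. The comparison asks which transcripts differ when the Usp40 mRNA has been lowered with siRNA 1.

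The 6 libraries held between 10784049 and 12390673 gene counts each. Of 25655 genes in the table, 11800 had enough counts to be tested. Levels are given as CPM, gene counts scaled to a common library size, and changes as log2 of siRNA 1 over control, so that a change of 1 is 2-fold. The podocyte label was checked against 39 podocyte genes, of which 27 could be tested. Ptpro, Tcf21 and Kirrel2 had no count in any library, Nphs1, the gene of the slit diaphragm protein nephrin, had none in these 6, and the transcription factor gene Wt1 had 27 counts over the 6 together. Podocyte genes tied to the actin skeleton were well covered, with 7697 counts for Synpo, 36938 for Actn4 and 28044 for Cd2ap. Part of the podocyte programme was thus at or near 0 in these cells. In bulk RNA, fewer cells of a type and less RNA per cell cannot be told apart. None of the 34 tested members of the lists of mesangial, endothelial, parietal or tubular, immune and fibroblast genes was called. The summed level of the endothelial list was 224 to 229 CPM with siRNA 1 and 177 to 206 CPM in the control, while its defining members Emcn, Tie1 and Cldn5 had no count and Cdh5 had 2 over the 6 libraries. The list of parietal and tubular cell genes summed to 3147 to 3158 CPM with siRNA 1 and 3251 to 3336 CPM in the control. Neither pair of ranges overlapped, and the part of these shifts in the results was not tested. The summed levels of the other 3 marker lists overlapped between the groups.

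Usp40 itself (ENSMUSG00000005501, GRCm39 chromosome 1, 87872841 to 87936273, minus strand) was measured first. It had 173, 174 and 196 counts with siRNA 1, against 371, 365 and 503 counts in the control. In scaled units it had 14.7, 15.6 and 16.9 CPM with siRNA 1, against 31.8, 33.8 and 40.9 CPM in the control. All 3 siRNA 1 libraries lay below all 3 control libraries. The mRNA stood at 44.2% of its control level (log2 change -1.18, SE 0.115, adjusted p = 0.000727 by edgeR's quasi-likelihood test with Benjamini-Hochberg adjustment). It was the largest fall among the 195 genes called. The levels with siRNA 2 were 19.2, 17.3 and 21.2 CPM, and siRNA 1 and siRNA 2 did not differ past the threshold (log2 difference -0.29, adjusted p = 0.185). Exons of Usp40 overlap exons of Dgkd on the opposite strand over 17.0% of their length in GENCODE vM39. The use of read strand in counting was not given in the sources used here, so reads of the overlapping stretch cannot be told apart. In the authors' deposited table, which gives control over siRNA 1, the log2 fold change of Usp40 was 1.19 with an adjusted p of 2.01e-18.

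Most of the changes that passed the test were under 2-fold. Of the 11800 genes tested, 74 were higher and 121 were lower with siRNA 1 than in the control at an adjusted p under 0.05, or 1.65% of all genes tested (0.627% higher and 1.03% lower). Only 4 of the rises and 3 of the falls reached 2-fold. The median log2 change was 0.46 among the rises and -0.47 among the falls, and 43 rises and 71 falls were under 0.5. Every one of the 195 genes had its siRNA 1 libraries all on 1 side of its control libraries, as did 16.6% of all genes tested (7.94% higher and 8.65% lower). At an unadjusted p under 0.05, 808 genes (6.85%) were higher and 800 (6.78%) lower. The median over all genes tested was 0.01. Of the 195 genes, 194 are protein coding in GENCODE and the other, the table's second Septin2 entry, has no GENCODE match of its own. In the authors' deposited table all 195 changed in the same direction, and 190 had an adjusted p under 0.05. Their comparison is of the same siRNA 1 and control libraries, so it is not an independent check.

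**Figure D1:**
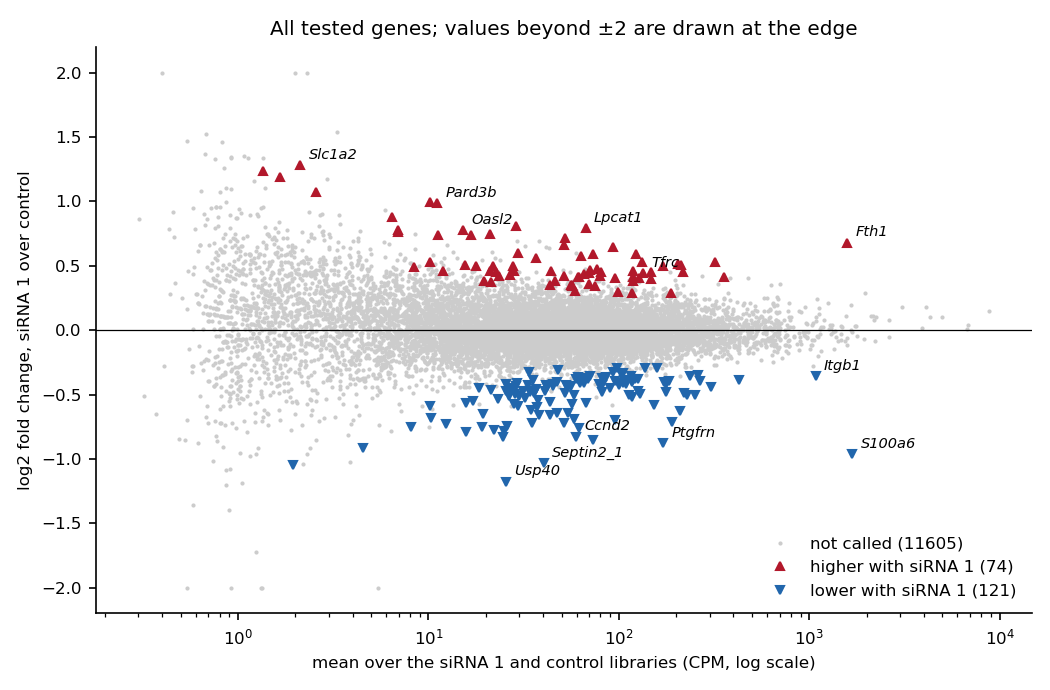
Log2 fold change of siRNA 1 over control (vertical axis) against mean level in CPM (horizontal log axis) for the 11800 tested genes, with the 74 called rises as upward triangles and the 121 called falls as downward triangles. Fth1, S100a6 and Itgb1 are called at over 1000 CPM, and no gene drawn at the edges of the plot was called.

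How many genes were called depended on single libraries. Without siRNA 1 replicate 3 the count was 12 higher and 24 lower, without control replicate 2 it was 15 and 34, without siRNA 1 replicate 2 it was 25 and 51, and without siRNA 1 replicate 1 it was 53 and 77. Fitted without the siRNA 2 libraries, 12 genes were higher and 25 lower, all among the 195. A total of 34 genes, 10 higher and 24 lower, were called whichever library was left out. The rises among them were Pard3b, Rbm18, Lpcat1, Oasl2, Fth1, Msrb3, Osbp, Crk, Tor1b and Eif2s3x. The falls included Usp40, Septin2_1, S100a6, Ptgfrn, Cyrib, Ccnd2, Rpp14, Bok, Pde3b, Hook1 and Ube2e3. Across genes the log2 change went with relative transcript length (Spearman correlation 0.255 over 11800 genes, which are not independent), and a fit that removed this trend called 158 genes higher and 206 lower, among them 189 of the 195.

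**Figure D2:**
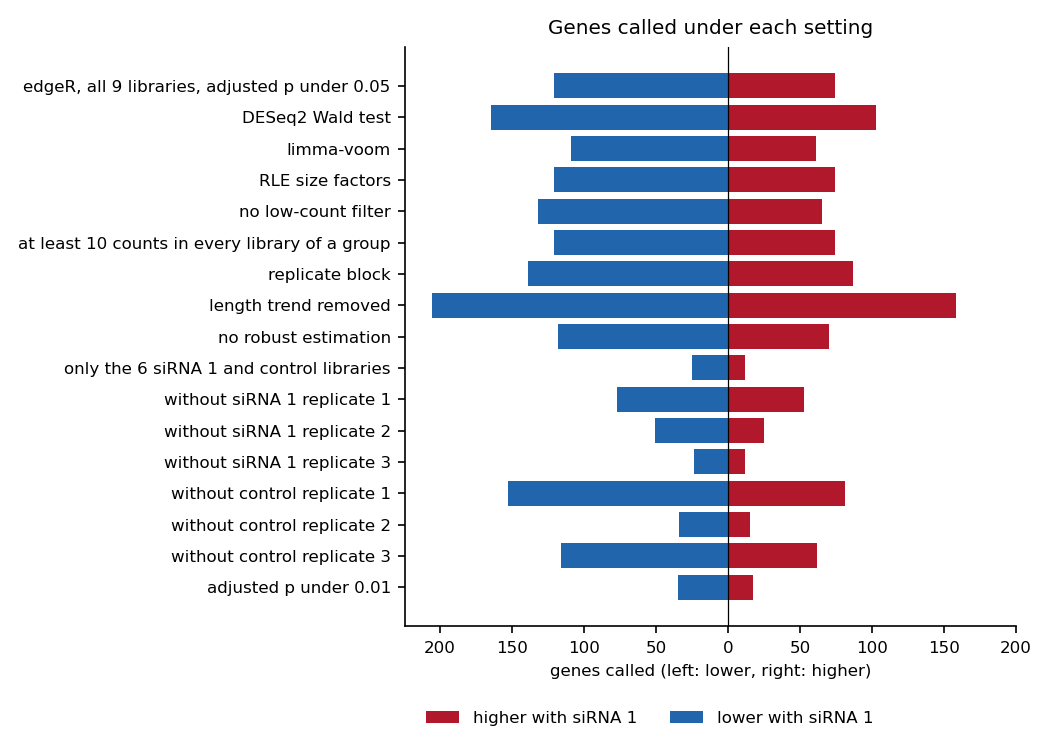
Number of genes called higher (right) and lower (left) with siRNA 1 under each setting, with the count of genes on the horizontal axis. The fit on all 9 libraries gave 74 and 121, the fit without siRNA 1 replicate 3 gave 12 and 24, and the fit without the length trend gave 158 and 206.

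Genes of iron storage, iron uptake and antioxidant defence were among the rises. In the list of NRF2 targets, glutathione enzymes and peroxiredoxins, 5 of 56 tested members rose and 1 fell, where 1.65% of all genes were called. At an unadjusted p under 0.05, 16 members (28.6%) were higher and 2 (3.57%) lower, beside 6.85% and 6.78% of all genes. The median log2 change of the list was 0.08. NRF2 is a transcription factor that is held back by KEAP1 until oxidants or electrophiles free it, and its targets make and recycle glutathione, degrade heme and store iron. Of the iron genes that rose, Fth1 and Tfrc carry iron-responsive elements, short RNA hairpins with a CAGUGN loop that bind iron regulatory proteins when iron is scarce: in the 5′ end of an mRNA they hold back translation, and in the 3′ end they protect the mRNA from decay. The elements were found in GENCODE transcripts and are shown because they are the regulatory sites that the ferritin and transferrin receptor genes are known for, with the loop and its last base in capitals, as DNA letters on the strand of the transcript.
Fth1, 5′ UTR, GRCm39 chr19:9960096-9960124, plus strand: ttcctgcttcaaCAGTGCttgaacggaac
Ftl1, 5′ UTR, GRCm39 chr7:45109203-45109231, minus strand: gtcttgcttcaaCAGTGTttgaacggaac
Slc40a1, 5′ UTR, GRCm39 chr1:45964625-45964653, minus strand: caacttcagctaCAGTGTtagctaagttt
Tfrc, 3′ UTR, GRCm39 chr16:32450037-32450065, plus strand: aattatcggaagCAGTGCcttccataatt
Tfrc, 3′ UTR, GRCm39 chr16:32450528-32450556, plus strand: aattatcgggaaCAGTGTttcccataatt
The motif searched was a C, 5 bases, the loop CAGTGN and 5 bases, with the 5 bases on either side of the loop able to pair, G with T included, on the strand of the transcript. It was found 1 time in Fth1 and 4 times in Tfrc, in 5 of the 194 called genes scanned (2.58%) and in 113 of 11774 tested genes (0.96%). A match describes the sequence and is not a measured binding site.

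Fth1, the heavy chain of the iron store ferritin (ENSMUSG00000024661, GRCm39 chromosome 19, 9957962 to 9962462), had 1921, 1855 and 2072 CPM with siRNA 1, against 1356, 1170.3 and 1125 CPM in the control. Every siRNA 1 library lay above every control library (log2 change 0.68, SE 0.0852, adjusted p = 0.00253). Ftl1, the light chain, which carries an element of the same kind, did not pass the test (log2 change 0.04, adjusted p = 0.900). Tfrc, the receptor that takes up transferrin-bound iron, had 148, 155 and 158 CPM with siRNA 1, against 114, 117 and 108 CPM in the control (log2 change 0.45, SE 0.0669, adjusted p = 0.00681). The 2 groups did not overlap. Slc40a1, the iron exporter ferroportin, had a log2 change of 0.29 that missed the threshold (adjusted p = 0.131). Hmox1, which degrades heme and so frees iron, had 142, 157 and 168 CPM with siRNA 1, against 103, 109 and 111 CPM in the control (log2 change 0.53, SE 0.0809, adjusted p = 0.00729). Gsr, which regenerates reduced glutathione, had 414, 400.05 and 412 CPM with siRNA 1, against 338, 297 and 287 CPM in the control (log2 change 0.41, SE 0.0721, adjusted p = 0.0150). Msrb3, a methionine sulfoxide reductase, averaged 88.4 ± 4.18 CPM with siRNA 1 and 58.6 ± 1.82 CPM in the control (SD, n = 3 each, log2 change 0.59, adjusted p = 0.00233). Prdx6, a peroxiredoxin, was the member that fell and averaged 148 ± 9.98 CPM with siRNA 1 and 196 ± 9.44 CPM in the control (SD, n = 3 each, log2 change -0.40, adjusted p = 0.0158). Fth1 and Msrb3 kept their calls in all 6 fits that left out 1 library. Tfrc and Hmox1 lost their calls without siRNA 1 replicate 3 (adjusted p = 0.0573 for both). Gsr lost its call without siRNA 1 replicate 3 or without control replicate 2 (adjusted p up to 0.0980). Prdx6 lost its call without siRNA 1 replicates 2 or 3 or without control replicate 2 (adjusted p up to 0.0804).

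Of the 56 tested members of the list, 39 had a log2 change above 0. Gclc, Gclm, G6pdx and Pgd, classic NRF2 targets, were among these without passing the adjusted test. They are named here after their values were seen. Gclc and Gclm, the subunits of the enzyme that starts glutathione synthesis, had log2 changes of 0.24 and 0.20 (adjusted p = 0.202 and 0.223). G6pdx and Pgd, which make NADPH, had 0.22 and 0.22 (adjusted p = 0.207 and 0.214). The same list separated the siRNAs when they were compared directly. Of its 56 members, 17 were higher with siRNA 1 than with siRNA 2 and 0 were lower. Of all genes, 4.25% were higher and 2.49% lower. Against the same control libraries the list's median log2 change was 0.08 with siRNA 1 and -0.20 with siRNA 2. The direct difference therefore also holds lower levels with siRNA 2. At an unadjusted p under 0.05 the count against the control was likewise higher for 20 members and lower for 2 once the length trend was removed. Against siRNA 2, Hmox1 differed by 0.70 (adjusted p = 0.000328), Tfrc by 0.61 (adjusted p = 0.000263) and Slc40a1 by 1.07 (adjusted p = 7.31e-05). With siRNA 2 the libraries held 90.3, 104 and 92.1 CPM of Hmox1 and 100.2, 96.1 and 106 CPM of Tfrc, which overlapped or lay below the control. Msrb3 rose with both siRNAs and did not differ between them past the threshold (log2 difference -0.19, adjusted p = 0.140).

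**Figure D3:**
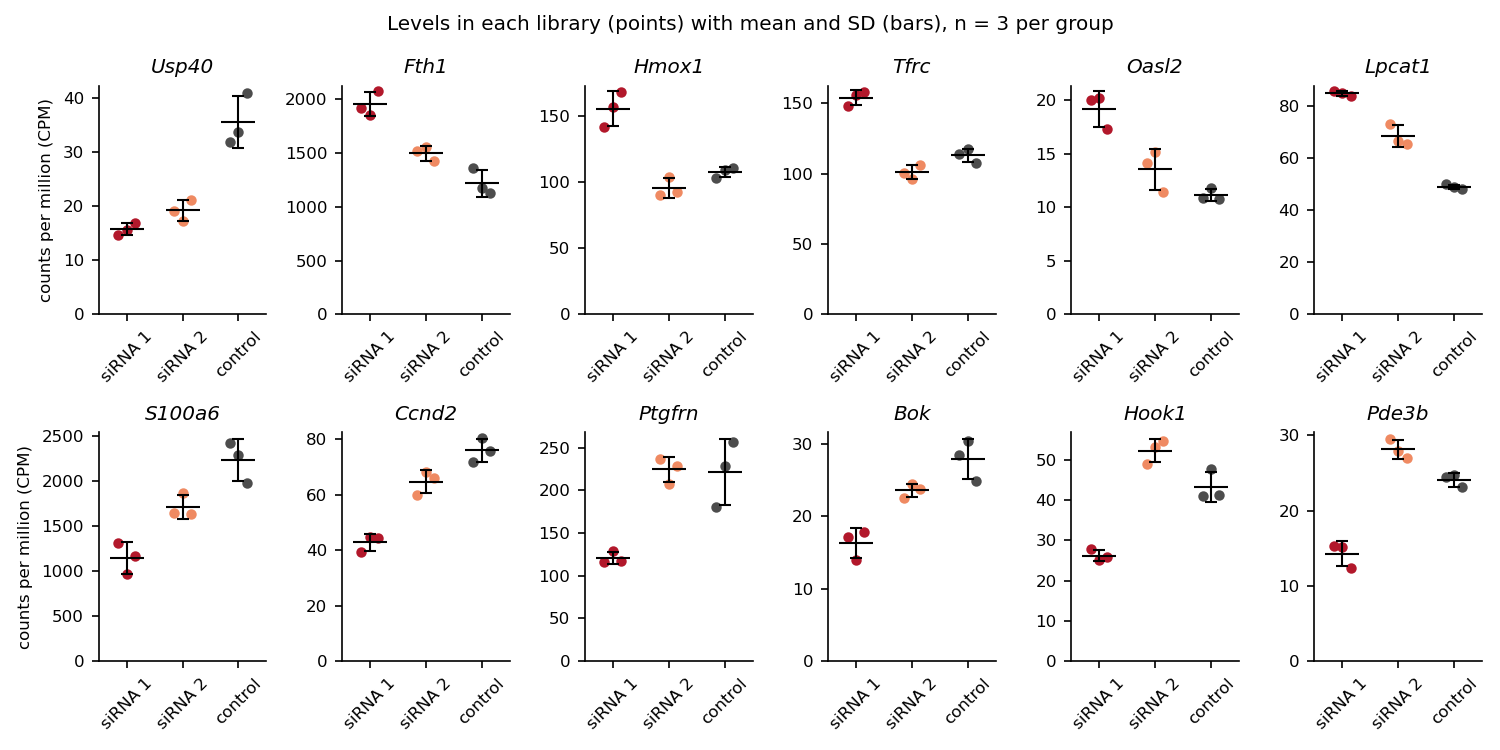
Level in CPM of 12 genes in each of the 3 libraries per group (points), with the mean and SD as bars, for siRNA 1, siRNA 2 and control from left to right. Usp40 is low with both siRNAs, Hmox1 and Tfrc are high with siRNA 1 and not with siRNA 2, and Ptgfrn and Pde3b are low with siRNA 1 and not with siRNA 2.

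Among interferon-stimulated genes 1 member was called, and the members at an unadjusted p under 0.05 were all higher with siRNA 1. These genes are switched on by interferon signalling or by sensors of foreign RNA and limit viral growth. Oasl2, an oligoadenylate synthetase-like gene, had 20.04, 20.2 and 17.3 CPM with siRNA 1, against 10.9, 11.8 and 10.8 CPM in the control. Every siRNA 1 library exceeded every control library (log2 change 0.78, SE 0.120, adjusted p = 0.00729), and the call held in all 6 fits that left out 1 library. It was the 1 called gene of 64 tested. At an unadjusted p under 0.05, 18 members (28.1%) were higher and 0 were lower, beside 6.85% and 6.78% of all genes, and the median log2 change of the list was 0.18. Some of them, named after their values were seen, were Oas1a with a log2 change of 0.61 (adjusted p = 0.106), Irf7 with 0.49 (adjusted p = 0.116) and Ifit1 with 0.30 (adjusted p = 0.283). The list's median was 0.05 with siRNA 2 against the same control libraries, and 2 members were higher with siRNA 1 than with siRNA 2, Oasl2 among them (log2 difference 0.50, adjusted p = 0.0231). Among 34 tested genes of the NF-kB response, cytokines and chemokines, 0 were called by edgeR and 1, higher, by DESeq2, and 4 were higher and 0 lower at an unadjusted p under 0.05. Masp1, a protease that starts complement activation, was the called member of the complement list, at 26.3 ± 2.25 CPM with siRNA 1 and 19.2 ± 0.551 CPM in the control (SD, n = 3 each, log2 change 0.45, adjusted p = 0.0217). Masp1 lost its call without siRNA 1 replicates 1 or 2 or without control replicates 2 or 3 (adjusted p up to 0.0989).

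Immediate early genes and growth factor receptors gave few calls. Myc, which drives cell growth and was also on the list of cell cycle regulators, had 57.2, 63.9 and 68.99 CPM with siRNA 1, against 49.8, 49.9 and 49.7 CPM in the control (log2 change 0.35, adjusted p = 0.0494). It was the 1 called gene of 37 immediate early and AP-1 genes, of which 6 were higher and 0 lower at an unadjusted p under 0.05, with a list median of 0.24. Egfr, the epidermal growth factor receptor, was the 1 called gene of 38 receptor tyrosine kinases and neuropilins, with 69.7, 87.3 and 70.3 CPM with siRNA 1, against 49.3, 43.1 and 59.8 CPM in the control (log2 change 0.58, adjusted p = 0.0427). In the Wnt list, Ryk, a Wnt receptor, rose (log2 change 0.45, adjusted p = 0.00699) and Lgr4, a receptor for R-spondins, fell (log2 change -0.38, adjusted p = 0.0290), the 2 calls among 34 genes tested. Among the largest rises outside any list were Creb5, a leucine zipper transcription factor, with 18.6, 24.8 and 19.5 CPM with siRNA 1, against 13.02, 12.6 and 12.03 CPM in the control (log2 change 0.74, adjusted p = 0.00736), Sox8, another transcription factor gene (log2 change 0.77, adjusted p = 0.0203), and Mapk4, an atypical MAP kinase (log2 change 0.75, adjusted p = 0.0181). Adgra1, an adhesion G protein-coupled receptor, averaged 8.75 ± 1.11 CPM with siRNA 1 and 5.07 ± 0.394 CPM in the control (SD, n = 3 each, log2 change 0.78, adjusted p = 0.0203). Ryk lost its call without siRNA 1 replicate 3 (adjusted p up to 0.0573). Creb5 lost its call without control replicate 2 (adjusted p up to 0.0532). Lgr4, Mapk4 and Adgra1 lost their calls without siRNA 1 replicates 2 or 3 or without control replicate 2 (highest adjusted p 0.0980 to 0.159). Sox8 lost its call without siRNA 1 replicates 2 or 3 or without control replicates 2 or 3 (adjusted p up to 0.113). Myc lost its call without siRNA 1 replicates 2 or 3 or without control replicates 1, 2 or 3 (adjusted p up to 0.222). Egfr lost its call without siRNA 1 replicates 1, 2 or 3 or without control replicates 1 or 2 (adjusted p up to 0.190). Myc was also not called by limma-voom (adjusted p = 0.0576), without the low-count filter (adjusted p = 0.0554) or without robust estimation (adjusted p = 0.0507).

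The polarity and adhesion lists held 1 or 2 calls each. Pard3b, a scaffold related to the PAR3 polarity protein (ENSMUSG00000052062, GRCm39 chromosome 1, 61677983 to 62681443), had 13.6, 16.2 and 14.5 CPM with siRNA 1, against 7.37, 7.13 and 7.80 CPM in the control. The groups did not overlap (log2 change 0.99, SE 0.117, adjusted p = 0.00217). It was the 1 called gene of 26 polarity and tight junction genes, of which 6 were higher and 0 lower at an unadjusted p under 0.05. It was higher still with siRNA 2, at 23.3, 19.6 and 19.8 CPM (log2 difference -0.50, adjusted p = 0.0131). Ptgfrn, a membrane partner of the tetraspanins CD9 and CD81, had 116, 129 and 118 CPM with siRNA 1, against 181, 229 and 257 CPM in the control (log2 change -0.88, SE 0.113, adjusted p = 0.00257). With siRNA 2 it had 237, 208 and 229 CPM, and the siRNAs differed (log2 difference -0.89, adjusted p = 0.000608). Reck, a membrane-anchored inhibitor of matrix metalloproteases, had 3.74, 2.60 and 3.10 CPM with siRNA 1, against 5.65, 6.66 and 5.61 CPM in the control (log2 change -0.92, adjusted p = 0.0305), a gene at the low end of what could be tested. Itgb1, the β1 integrin chain through which podocytes hold on to the basement membrane, had 968, 943 and 932 CPM with siRNA 1, against 1199, 1241 and 1196 CPM in the control (log2 change -0.36, SE 0.0617, adjusted p = 0.0150). With siRNA 2 its libraries stood at 1246, 1237 and 1257 CPM, above every siRNA 1 library (log2 difference -0.40, adjusted p = 0.00220). Cav1, the coat protein of caveolae, fell (log2 change -0.33, adjusted p = 0.0306) and Cd44, the hyaluronan receptor, rose (log2 change 0.36, adjusted p = 0.0383). These were the calls among 35 integrin and focal adhesion genes (Itgb1 and Cav1), 29 matrix proteases and inhibitors (Reck), 22 tetraspanins and partners (Ptgfrn) and 25 intermediate filament and mesenchymal genes (Cd44). Pard3b and Ptgfrn kept their calls in all 6 fits that left out 1 library. Reck and Itgb1 lost their calls without siRNA 1 replicates 2 or 3 or without control replicate 2 (highest adjusted p 0.101 to 0.139). Cav1 and Cd44 lost their calls without siRNA 1 replicates 1, 2 or 3 or without control replicates 2 or 3 (highest adjusted p 0.156 to 0.168). Cd44 was also not called once the length trend was removed (adjusted p = 0.0630).

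None of the 27 tested podocyte identity genes and none of 61 actin genes was called by edgeR. At an unadjusted p under 0.05 the podocyte list had 3 members higher and 1 lower with a median of 0.13, and the actin list had 8 higher and 2 lower with a median of 0.03. DESeq2 called 1 podocyte gene higher and 1 lower, and 1 actin gene higher. Synpo, the actin-binding protein synaptopodin, had 119, 134 and 118 CPM with siRNA 1, against 90.5, 97.7 and 107 CPM in the control and missed the threshold (log2 change 0.33, adjusted p = 0.0817). Foxc1, of the same list, missed it in the other direction (log2 change -0.39, adjusted p = 0.0693 by edgeR). Synpo and Foxc1 are named here after their values were seen. Nes, the intermediate filament nestin, had 226, 259 and 245 CPM with siRNA 1, against 132, 232 and 207 CPM in the control, and the groups overlapped (log2 change 0.35, adjusted p = 0.388). Cfl1, the actin-severing protein cofilin, had 1314, 1186 and 1349 CPM with siRNA 1, against 1484, 1447 and 1336 CPM in the control (log2 change -0.15, adjusted p = 0.426). Rhoa, the small GTPase that drives stress fibres, had 401, 358 and 383 CPM with siRNA 1, against 496, 471 and 388 CPM in the control (log2 change -0.25, adjusted p = 0.251) and was called in 1 of the 6 fits that left out a library, the one without control replicate 3 (adjusted p = 0.0451). Extracellular matrix genes (43 tested), TGF-beta and BMP signalling genes (39) and YAP and TEAD targets (25) had 0 calls each, with 4, 2 and 3 members higher and 0, 2 and 2 lower at an unadjusted p under 0.05. DESeq2 called 2, 1 and 1 of their members higher and 0 lower.

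Among G1 regulators 3 genes fell and 1 rose. Ccnd2, a D-type cyclin that carries growth signals into the cycle (ENSMUSG00000000184, GRCm39 chromosome 6, 127102125 to 127129156), had 39.4, 44.7 and 44.3 CPM with siRNA 1, against 71.9, 80.4 and 75.7 CPM in the control. It fell with no overlap (log2 change -0.83, SE 0.0816, adjusted p = 0.000727) and was lower with siRNA 1 than with siRNA 2 (log2 difference -0.60, adjusted p = 0.000911). Ccnd3, another D-type cyclin, had 99.4, 102 and 105 CPM with siRNA 1, against 131, 119 and 141 CPM in the control (log2 change -0.35, adjusted p = 0.0306). E2f6, a repressive E2F factor, averaged 15.6 ± 1.61 CPM with siRNA 1 and 21.3 ± 0.789 CPM in the control (SD, n = 3 each, log2 change -0.45, adjusted p = 0.0337). With the rise of Myc these were the calls among 26 G1 cyclins, kinases and inhibitors, of which 1 was higher and 8 (30.8%) lower at an unadjusted p under 0.05, beside 6.85% and 6.78% of all genes, with a median of -0.16. Dbf4, which activates the kinase that fires replication origins, fell (log2 change -0.41, adjusted p = 0.0395), and so did Topbp1, a scaffold of replication and checkpoint signalling (log2 change -0.52, adjusted p = 0.00756), the 2 calls among 60 S phase genes. At an unadjusted p under 0.05, 2 members of the S phase list were higher and 5 lower, but 9 were higher and 5 lower once the length trend was removed, and 31 of the 60 had a log2 change above 0. Ccnd2 kept its call in all 6 fits that left out 1 library. Topbp1 lost its call without siRNA 1 replicate 3 or without control replicate 2 (adjusted p up to 0.0650). Ccnd3 lost its call without siRNA 1 replicates 1, 2 or 3 or without control replicate 3 (adjusted p up to 0.114). E2f6 and Dbf4 lost their calls without siRNA 1 replicates 1, 2 or 3 or without control replicates 2 or 3 (highest adjusted p 0.121 to 0.176). Ccnd3 overlaps exons of Bysl on the opposite strand over 3.99% of its exon length.

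In the G2 and mitosis list 0 of 58 members were called, but 19 (32.8%) were lower and 0 were higher at an unadjusted p under 0.05, beside 6.78% and 6.85% of all genes, and the median log2 change was -0.12. DESeq2 called 3 members lower. Named after their values were seen, Cenpa, the centromeric histone, had a log2 change of -0.31 (adjusted p = 0.0679), Birc5, the chromosomal passenger survivin, had -0.32 (adjusted p = 0.0803), and Aurka, the mitotic kinase Aurora A, had -0.24 (adjusted p = 0.125). Ccnb1 and Cdk1, the pair that starts mitosis, had -0.21 and -0.17 (adjusted p = 0.222 and 0.248). The summed level of the list was 5949 to 6697 CPM with siRNA 1 and 6424 to 7123 CPM in the control, which overlap. The median of the same list was -0.05 with siRNA 2. Only 1 member, Birc5, differed between the siRNAs (log2 difference 0.56, adjusted p = 0.00141 by edgeR), and it was lower with siRNA 2 than with siRNA 1.

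**Figure D4:**
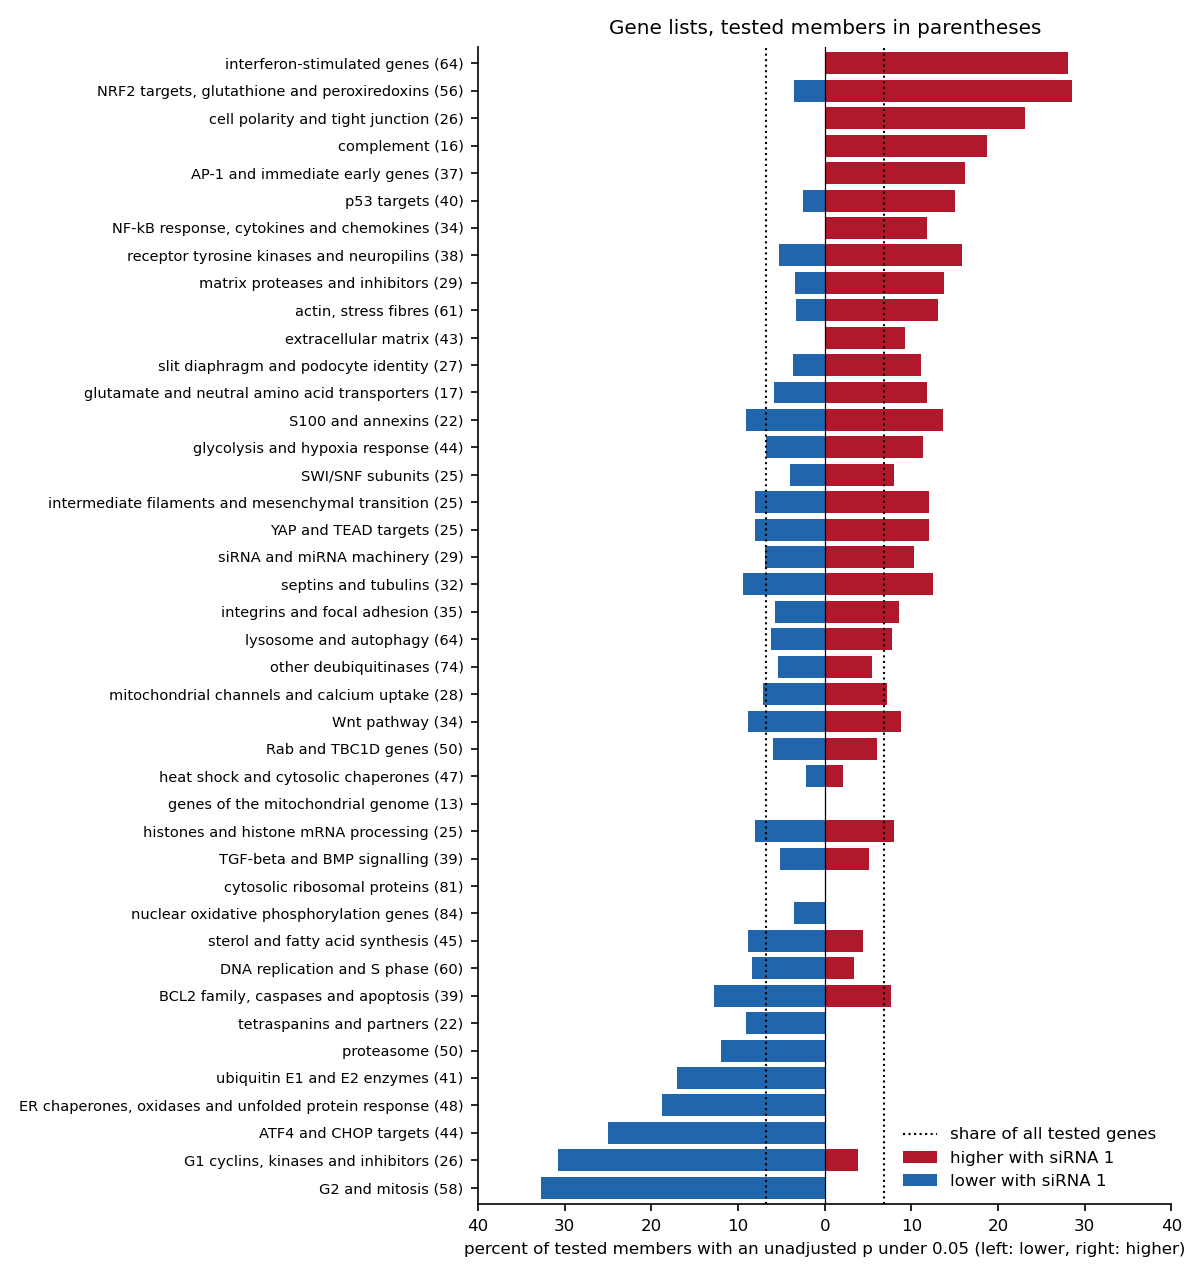
Share of the tested members of each of 42 gene lists with an unadjusted p under 0.05, lower with siRNA 1 to the left and higher to the right, in percent, with the shares of all tested genes (6.78% and 6.85%) as dotted lines. Interferon-stimulated genes (28.1% higher) and the list of NRF2 targets, glutathione enzymes and peroxiredoxins (28.6% higher) stand at the top. G1 regulators (30.8% lower) and G2 and mitosis genes (32.8% lower) stand at the bottom.

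Bok fell among the genes of programmed cell death. Bok, a BCL2 family effector that permeabilizes mitochondria, had 17.2, 13.96 and 17.8 CPM with siRNA 1, against 28.5, 30.4 and 24.9 CPM in the control (log2 change -0.77, SE 0.109, adjusted p = 0.00455). The groups did not overlap, and Bok was also lower with siRNA 1 than with siRNA 2 (log2 difference -0.53, adjusted p = 0.0122). Its list of 39 apoptosis genes had 3 members higher and 5 lower at an unadjusted p under 0.05. Trp53, the gene of p53, had 219, 194 and 207 CPM with siRNA 1, against 211, 182 and 198 CPM in the control, and its groups overlapped (log2 change 0.07, adjusted p = 0.738). Of 40 p53 targets, Sesn1, a stress-induced inhibitor of mTORC1, was called, with 61.4, 52.98 and 53.7 CPM with siRNA 1, against 78.5, 70.2 and 68.2 CPM in the control (log2 change -0.37, adjusted p = 0.0461), while 6 members were higher and 1 lower at an unadjusted p under 0.05. Bok kept its call in all 6 fits that left out 1 library. Sesn1 lost its call without siRNA 1 replicates 2 or 3 or without control replicates 1 or 2 (adjusted p up to 0.207). The exons of Sesn1 overlap those of Cep57l1 on the opposite strand over 10.9% of their length.

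The lists of protein folding in the endoplasmic reticulum and of the ATF4 stress response held 1 fall each. Ero1a, the oxidase that drives disulfide bond formation, had 93.5, 94.2 and 92.1 CPM with siRNA 1, against 121, 127 and 126 CPM in the control (log2 change -0.42, adjusted p = 0.0197). It was lower again with siRNA 2, at 62.3, 50.8 and 59.4 CPM, so that siRNA 1 lay above siRNA 2 (log2 difference 0.70, adjusted p = 0.000294). Of the 48 genes of the list, 9 (18.8%) were lower and 0 higher at an unadjusted p under 0.05, beside 6.78% lower and 6.85% higher of all genes, with a median of -0.09. Trib3, a pseudokinase induced by ATF4 and CHOP, had 14.4, 11.5 and 12.2 CPM with siRNA 1, against 16.9, 20.5 and 19.2 CPM in the control (log2 change -0.56, adjusted p = 0.0292). Of 44 ATF4 and CHOP targets, 11 (25.0%) were lower and 0 higher by the same measure, beside the same shares of all genes, with a median of -0.07. Named after their values were seen, Atf4 had a log2 change of -0.24 (adjusted p = 0.180), Phgdh, the first enzyme of serine synthesis, -0.25 (adjusted p = 0.158) and Chac1, which degrades glutathione, -0.41 (adjusted p = 0.251). Chac2, a relative of Chac1 on no list, was among the largest falls, with 19.7, 17.00 and 17.9 CPM with siRNA 1, against 36.1, 36.1 and 22.1 CPM in the control (log2 change -0.78, adjusted p = 0.0383). Its control libraries spread widely, and limma-voom did not call it (adjusted p = 0.0667). Of 47 heat shock and cytosolic chaperone genes 0 were called, with 1 higher and 1 lower at an unadjusted p under 0.05. Ero1a lost its call without siRNA 1 replicates 1, 2 or 3 or without control replicate 2 (adjusted p up to 0.119). Trib3 lost its call without siRNA 1 replicates 2 or 3 or without control replicates 2 or 3 (adjusted p up to 0.147). Chac2 lost its call without siRNA 1 replicates 1, 2 or 3 or without control replicates 1 or 2 (adjusted p up to 0.181).

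Outside Usp40 the lists of the ubiquitin system held 3 calls. Of 74 other deubiquitinase genes, Usp30, a deubiquitinase of the mitochondrial outer membrane, was called, with 63.1, 62.8 and 62.5 CPM with siRNA 1, against 46.9, 49.97 and 50.9 CPM in the control (log2 change 0.35, adjusted p = 0.0203), and 4 members were higher and 4 lower at an unadjusted p under 0.05. Ube2e3, a ubiquitin-conjugating E2 enzyme, had 81.9, 65.1 and 70.1 CPM with siRNA 1, against 129, 119 and 105 CPM in the control (log2 change -0.70, SE 0.0974, adjusted p = 0.00424). It was the 1 call among 41 E1 and E2 genes, of which 0 were higher and 7 (17.1%) lower at an unadjusted p under 0.05, beside 6.85% and 6.78% of all genes. Psma1, an α subunit of the proteasome core, had 135, 111 and 120.1 CPM with siRNA 1, against 207, 176 and 164 CPM in the control (log2 change -0.58, adjusted p = 0.0105), the 1 call among 50 proteasome genes, of which 0 were higher and 6 (12.0%) lower by the same measure. The exons of Usp30 overlap those of Alkbh2 on the opposite strand over 32.2% of their length. Hint1, whose protein has been tied to USP40, had 483, 361 and 425 CPM with siRNA 1, against 496, 373 and 392 CPM in the control, with overlapping groups and no change past the threshold (log2 change 0.01, adjusted p = 0.984). Ube2e3 kept its call in all 6 fits that left out 1 library. Psma1 lost its call without siRNA 1 replicate 3 or without control replicate 2 (adjusted p up to 0.0853). Usp30 lost its call without siRNA 1 replicates 1, 2 or 3 or without control replicate 2 (adjusted p up to 0.101).

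Among the cytoskeleton and calcium-binding genes, S100a6 was the most abundant fall. S100a6, the calcium-binding protein calcyclin (ENSMUSG00000001025, GRCm39 chromosome 3, 90520189 to 90531488), had 1306, 960.02 and 1163 CPM with siRNA 1, against 2423, 2288 and 1972 CPM in the control. It stood at 51.3% of its control level (log2 change -0.96, SE 0.115, adjusted p = 0.00217), was lower with siRNA 1 than with siRNA 2 (log2 difference -0.58, adjusted p = 0.00969), and was the 1 call among 22 S100 and annexin genes. Septin2, a GTP-binding filament protein, has 2 entries in the table at nearly the same place. The first, Septin2_1, had 27.3, 30.1 and 22.02 CPM with siRNA 1, against 61.1, 52.9 and 48.2 CPM in the control (log2 change -1.03, SE 0.132, adjusted p = 0.00257), and the second had 279, 242 and 257 CPM with siRNA 1, against 369, 367 and 319 CPM in the control (log2 change -0.44, adjusted p = 0.0181). Since the entries share their position, how reads were divided between them is uncertain. Hook1, which links cargo to dynein on microtubules, had 27.8, 25.1 and 25.8 CPM with siRNA 1, against 41.2, 47.7 and 41.3 CPM in the control (log2 change -0.72, SE 0.0871, adjusted p = 0.00217). These 3 entries were the calls among 32 septin, tubulin and microtubule genes. Dctn6, a subunit of the dynein partner dynactin, had 52.7, 41.2 and 43.7 CPM with siRNA 1, against 90.7, 74.9 and 68.2 CPM in the control (log2 change -0.76, adjusted p = 0.00649). Cyrib, which binds active Rac1 and restrains the actin-branching WAVE complex, had 59.5, 43.7 and 52.6 CPM with siRNA 1, against 104, 94.8 and 82.3 CPM in the control (log2 change -0.85, SE 0.113, adjusted p = 0.00301). S100a6, Septin2_1, Hook1 and Cyrib kept their calls in all 6 fits that left out 1 library. Dctn6 lost its call without siRNA 1 replicate 3 (adjusted p up to 0.0573). Septin2_2 lost its call without siRNA 1 replicates 2 or 3 or without control replicate 2 (adjusted p up to 0.112).

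Membrane lipid, transport and signalling genes gave some of the largest changes. Lpcat1, which makes phosphatidylcholine from its lyso form, had 85.8, 85.3 and 83.9 CPM with siRNA 1, against 50.02, 48.95 and 48.2 CPM in the control. The libraries within a group agreed within 2 CPM, and the groups lay far apart (log2 change 0.79, SE 0.0686, adjusted p = 0.000727). It was also higher with siRNA 1 than with siRNA 2 (log2 difference 0.31, adjusted p = 0.0158) and was the 1 call among 45 sterol and lipid synthesis genes. Slc1a2, a glutamate transporter, was the largest rise named, with 3.14, 3.58 and 2.32 CPM with siRNA 1, against 1.20, 1.02 and 1.46 CPM in the control (log2 change 1.28, SE 0.264, adjusted p = 0.0328), at a level near the lowest that could be tested. Slc7a6, an amino acid exchanger, fell (log2 change -0.40, adjusted p = 0.0150). These were the calls among 17 glutamate and neutral amino acid transporters. Pde3b, a cyclic nucleotide phosphodiesterase, had 15.3, 15.1 and 12.4 CPM with siRNA 1, against 24.4, 24.8 and 23.1 CPM in the control (log2 change -0.76, SE 0.0968, adjusted p = 0.00257). With siRNA 2 it had 29.5, 27.9 and 27.02 CPM, above both other groups, and the siRNAs differed (log2 difference -0.98, adjusted p = 0.000131). Tbc1d9 rose (log2 change 0.71, adjusted p = 0.0197) and Tbc1d8b, whose human counterpart is mutated in some inherited nephrotic syndromes, fell (log2 change -0.74, adjusted p = 0.0125), the 2 calls among 50 Rab and TBC domain genes. Among abundant genes, Cpd, a carboxypeptidase of the trans-Golgi, averaged 378 ± 38.3 CPM with siRNA 1 and 262 ± 23.8 CPM in the control (SD, n = 3 each, log2 change 0.53, adjusted p = 0.0197), and Rtn4, which shapes endoplasmic reticulum tubules, averaged 369 ± 9.37 CPM with siRNA 1 and 483 ± 26.4 CPM in the control (log2 change -0.39, adjusted p = 0.0142). Exoc3l4, an exocyst-related gene, rose (log2 change 0.88, adjusted p = 0.0317), as did Tmem143 (log2 change 0.74, adjusted p = 0.0337), which limma-voom did not call (adjusted p = 0.0536), and Ugt1a7c, a glucuronosyltransferase (log2 change 0.60, adjusted p = 0.0123). Ugt1a7c shares 74.2% of its exon length with Ugt1a6a, so its count is uncertain. Lpcat1 and Pde3b kept their calls in all 6 fits that left out 1 library. Tbc1d8b and Ugt1a7c lost their calls without siRNA 1 replicate 3 or without control replicate 2 (highest adjusted p 0.0764 to 0.0915). Slc7a6 lost its call without siRNA 1 replicates 1 or 3 or without control replicate 2 (adjusted p up to 0.101). Tbc1d9, Cpd and Rtn4 lost their calls without siRNA 1 replicates 2 or 3 or without control replicate 2 (highest adjusted p 0.0800 to 0.101). Exoc3l4 lost its call without siRNA 1 replicates 1 or 3 or without control replicates 2 or 3 (adjusted p up to 0.162). Tmem143 lost its call without siRNA 1 replicates 2 or 3 or without control replicates 1 or 2 (adjusted p up to 0.173). Slc1a2 lost its call whichever of the 6 libraries was left out (adjusted p up to 0.159). DESeq2 gave no adjusted p for Slc1a2, and limma-voom called it (adjusted p = 0.0440).

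Chromatin and RNA genes moved singly and in both directions. Smarca4, the motor subunit of SWI/SNF remodellers, had 229, 266 and 248 CPM with siRNA 1, against 152, 179 and 192 CPM in the control (log2 change 0.51, adjusted p = 0.0150), while Pbrm1, a subunit of one form of the complex, had 105, 119 and 97.1 CPM with siRNA 1, against 138, 153 and 162 CPM in the control (log2 change -0.50, adjusted p = 0.0150). They were the calls among 25 SWI/SNF genes. Tnrc6a, which carries out silencing for Argonaute proteins, rose (log2 change 0.65, adjusted p = 0.00729) and Cnot6, a deadenylase of the same pathway, fell (log2 change -0.39, adjusted p = 0.0276), among 29 genes of the siRNA and miRNA machinery. Rpp14, a subunit of RNase P, had 12.1, 10.4 and 12.1 CPM with siRNA 1, against 21.2, 20.4 and 18.6 CPM in the control (log2 change -0.79, SE 0.101, adjusted p = 0.00257). Eif2s3x, the γ subunit of the translation initiation factor eIF2, had 257, 244 and 254 CPM with siRNA 1, against 189, 184 and 178 CPM in the control (log2 change 0.45, SE 0.0614, adjusted p = 0.00331), and Rbm18, an RNA-binding protein gene, had 38.6, 36.3 and 35.2 CPM with siRNA 1, against 22.2, 22.5 and 18.1 CPM in the control (log2 change 0.81, SE 0.0928, adjusted p = 0.00217). Exons on the opposite strand overlap 7.52% of the exon length of Rbm18 (Mrrf), 1.36% of that of Pbrm1 (Gnl3) and 7.57% of that of Nemp1 (Nab2). The histone gene H2bc4 had 12.99, 13.8 and 14.2 CPM with siRNA 1, against 7.45, 5.37 and 7.64 CPM in the control (log2 change 0.99, adjusted p = 0.0240), and with siRNA 2 it had 40.1, 60.5 and 58.3 CPM, the largest difference between the siRNAs among the called genes (log2 difference -1.96, adjusted p = 7.31e-05). As a member of a family of near-identical copies its count is uncertain, and limma-voom did not call it (adjusted p = 0.0534). Nemp1, an inner nuclear envelope protein, fell (log2 change -0.83, adjusted p = 0.00729), as did Tmem64 (log2 change -0.54, adjusted p = 0.0184) and Kbtbd8, an adaptor of a ubiquitin ligase, at under 3 CPM in every library (log2 change -1.05, adjusted p = 0.0477, and 0.0531 by limma-voom). Gm2026, a predicted gene for which no role is given here, rose at under 4 CPM in every library (log2 change 1.08, adjusted p = 0.0383). Rpp14, Eif2s3x and Rbm18 kept their calls in all 6 fits that left out 1 library. Pbrm1, Tnrc6a and Nemp1 lost their calls without siRNA 1 replicate 3 or without control replicate 2 (highest adjusted p 0.0532 to 0.0991). Smarca4 lost its call without siRNA 1 replicates 2 or 3 or without control replicate 2 (adjusted p up to 0.0915). Tmem64 lost its call without siRNA 1 replicates 1 or 3 or without control replicate 2 (adjusted p up to 0.0912). Cnot6 lost its call without siRNA 1 replicates 1, 2 or 3 or without control replicate 2 (adjusted p up to 0.153). H2bc4 lost its call without siRNA 1 replicates 1, 2 or 3 or without control replicates 1 or 2 (adjusted p up to 0.128). Gm2026 lost its call without siRNA 1 replicates 1, 2 or 3 or without control replicates 2 or 3 (adjusted p up to 0.143). Kbtbd8 lost its call whichever of the 6 libraries was left out (adjusted p up to 0.196). Against the control, DESeq2 gave no adjusted p for Gm2026 or Kbtbd8, and limma-voom called Gm2026 (adjusted p = 0.0408).

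The large housekeeping groups held no call. None of 81 cytosolic ribosomal protein genes was called by edgeR, and 0 of them had an unadjusted p under 0.05 in either direction, with a median of 0.04. Of 84 nuclear oxidative phosphorylation genes 0 were called, with 0 higher and 3 lower at an unadjusted p under 0.05 and a median of -0.09. The 13 genes of the mitochondrial genome had 0 calls and 0 at an unadjusted p under 0.05. Of all genes tested, 6.85% were higher and 6.78% lower by the same measure. Small shifts within these lists mostly went 1 way. A log2 change above 0 was seen in 61 of the 81 ribosomal protein genes and 11 of the 13 mitochondrial genome genes. It was seen in 8 of the 84 nuclear oxidative phosphorylation genes. The median over all genes tested was 0.01. Lysosome and autophagy genes (64 tested) had 5 higher and 4 lower at an unadjusted p under 0.05 and 0 calls, and glycolysis and hypoxia genes (44 tested) had 5 higher and 3 lower and 0 calls. Mitochondrial channel and calcium uptake genes (28 tested) had 2 higher and 2 lower and 0 calls. DESeq2 called 1 gene of this last list higher and 0 genes of the other 5. Once the length trend was removed, 13 ribosomal protein genes were higher and 0 lower at an unadjusted p under 0.05. In the same fit the nuclear oxidative phosphorylation genes had a median of -0.04, with 1 higher and 6 lower.

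The siRNAs were also compared directly. Of the 195 genes, 87 also differed between siRNA 1 and siRNA 2, where 6.74% of all genes tested did, and the 195 had been chosen with the same siRNA 1 libraries. They were 14 of the 74 rises and 73 of the 121 falls. In 79 of them (11 rises and 68 falls) siRNA 1 lay beyond siRNA 2 in the direction of its own change from the control. This count includes genes that moved the opposite way with siRNA 2. The other 108 did not differ between the siRNAs past the threshold, which does not show that the siRNAs act alike on them. Crk, an adaptor of growth factor and integrin signalling, averaged 199 ± 5.45 CPM with siRNA 1 and 141 ± 3.46 CPM in the control (SD, n = 3 each, log2 change 0.50, adjusted p = 0.00217), and its log2 change with siRNA 2 was 0.55. Osbp, an oxysterol-binding protein, had a log2 change of 0.59 with siRNA 1 and 0.61 with siRNA 2 (adjusted p = 0.00233 and 0.000331). Tor1b, an ATPase of the endoplasmic reticulum, had 0.47 and 0.43 (adjusted p = 0.00601 and 0.00213), and 57.2% of its exon length overlaps Tor1a on the opposite strand. Cbfb, the partner subunit of RUNX transcription factors, had -0.71 with siRNA 1 and 0.02 with siRNA 2 (log2 difference -0.73, adjusted p = 0.00013). Snrpb, a core protein of spliceosomal particles, had -0.63 and -0.09 (log2 difference -0.54, adjusted p = 0.00138). Osbp, Crk, Tor1b, Cbfb and Snrpb were chosen for naming after their values were seen. Both siRNAs are compared with the same control libraries, so the 2 changes of a gene are not independent.

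**Figure D5:**
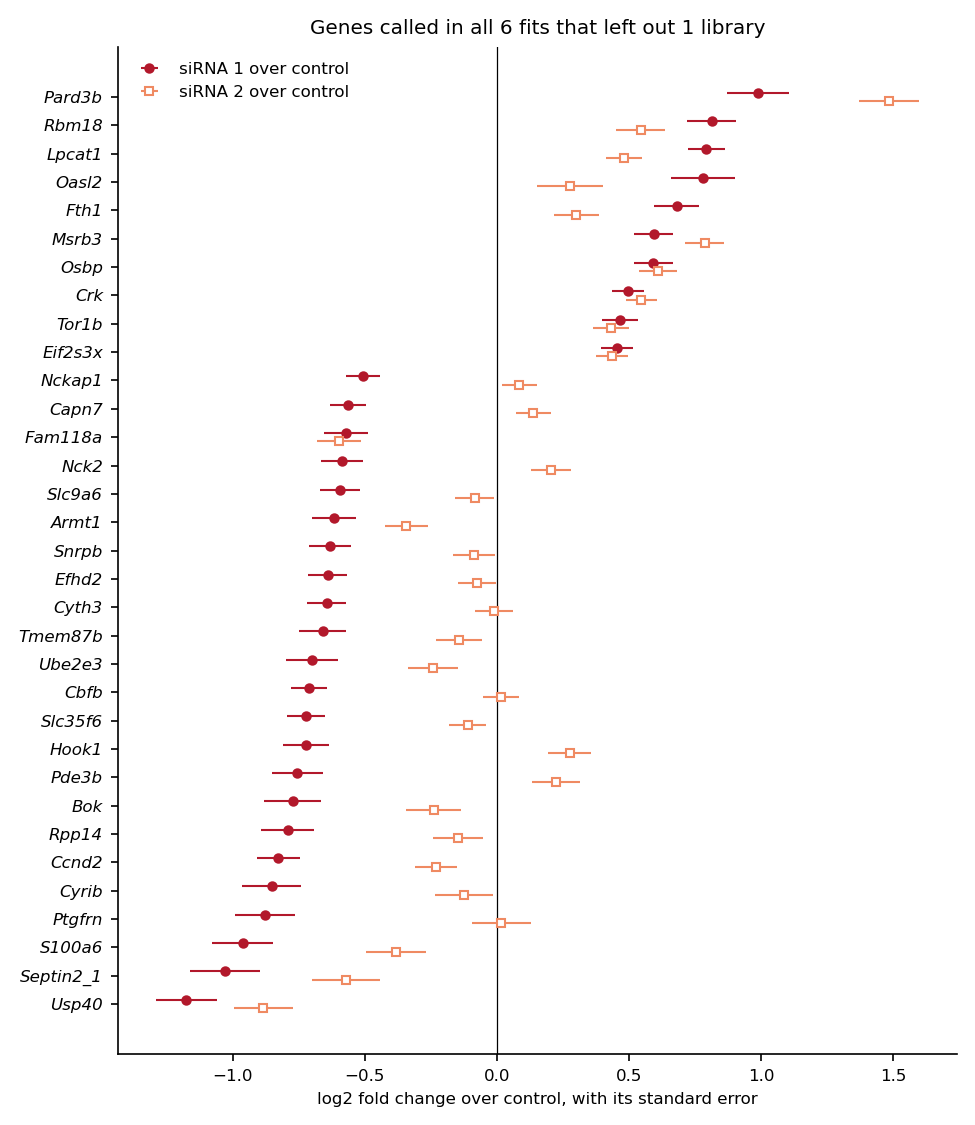
Log2 fold change over control with its standard error for 33 of the 34 genes called in all 6 fits that left out 1 library, with siRNA 1 as filled circles and siRNA 2 as open squares, measured against the same control libraries. The genes were chosen on their siRNA 1 values. With siRNA 2 the falls are spread out. Usp40, Septin2_1 and S100a6 lie below 0 with both siRNAs. Ptgfrn, Cbfb and Nckap1 lie near 0 with siRNA 2, and Hook1 and Pde3b lie above 0. Crk, Tor1b, Eif2s3x and Osbp lie at nearly the same place with both.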

How the data were processed

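Poly(A) RNA of 9 podocyte libraries, 3 per group, was sequenced after 12 PCR cycles as pairs of 36 bp reads from strand-specific libraries, per the labels' protocols. Reads were trimmed in CLC Genomics Workbench 23.02, per the labels' protocols, and the submitters' processing notes name DESeq2 and GRCm39. Not given in the sources used here were counting settings, annotation release and siRNA sequences. The deposited table holds the authors' total counts, with RPKM and TPM beside them, and a scaled CPM signal of the authors' own, none of which but the counts was tested. The authors' deposited comparison gives a log2 fold change, a p-value and an adjusted p-value, and its 3530 adjusted values of 0 that stand beside a higher p-value were not read as calls.

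The filterByExpr function kept 11800 of 25655 genes, of which 9483 had no count anywhere. The 9 libraries were fitted together by group with edgeR 4.0.16 in R 4.3.3, using TMM scaling, robust quasi-likelihood and Benjamini-Hochberg adjustment over all tested genes. Called means an adjusted p under 0.05. The coefficient of variation between replicates beyond counting noise, estimated by edgeR over the 9 libraries, was 8.56%, and part of it may be technical. The SE is derived from the F value. Alternatives were DESeq2 1.42.0, limma 3.58.1 (voom), RLE scaling, other filters, no robust estimation, a replicate block, a length offset, 6 libraries, an adjusted p under 0.01, and each library left out. The fits were tested on simulated counts. Replicates differed beyond sampling noise, with a chi-square per degree of freedom of 4.76 to 19.2, and PCR copies are not independent molecules.

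Named by rule were Usp40, Hint1, Trp53, Nes, Cfl1 and Rhoa, the 15 largest rises and 15 largest falls averaging 2 CPM or more with no overlap, the 5 most abundant rises and falls, each called member of 42 lists (5 more lists hold markers of other cells), and the 5 called genes each way that differed most from siRNA 2. Some genes that the rule names are not reported here. These genes and lists were chosen with earlier results of these data known. Exon overlaps and iron-responsive elements come from GENCODE vM39 on GRCm39.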

Additional observations from a re-analysis of the deposited data

Results flagged for a closer look

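Hook1 and Topbp1 stand out because each was called with both siRNAs in opposite directions, and the difference between the siRNAs was tested and passed as well. Hook1 held 27.8, 25.1 and 25.8 CPM with siRNA 1, 49.1, 53.3 and 54.8 CPM with siRNA 2, and 41.2, 47.7 and 41.3 CPM in the control. Its log2 change was -0.72 with siRNA 1 and 0.27 with siRNA 2 (adjusted p = 0.00217 and 0.0433 by edgeR), and the siRNA 1 minus siRNA 2 difference was -0.999 (adjusted p = 8.65e-05 by edgeR). Topbp1 held 93.8, 99.3 and 95.5 CPM with siRNA 1, 163, 167 and 173 CPM with siRNA 2, and 121, 142 and 150.4 CPM in the control. Its log2 change was -0.52 with siRNA 1 and 0.28 with siRNA 2 (adjusted p = 0.00756 and 0.0337 by edgeR), and the difference was -0.802 (adjusted p = 0.000137 by edgeR). For both genes the 3 groups of libraries did not overlap. Topbp1 lost its call against the control without siRNA 1 replicate 3 or without control replicate 2. The cause of the opposite changes was not tested.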

How the results depend on the processing

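The counts of genes called depended on the libraries in the fit. Against 74 genes higher and 121 lower, 158 and 206 were called with the length trend removed, 12 and 25 with only the 6 libraries of siRNA 1 and control, and 17 and 35 at an adjusted p under 0.01. Leaving out 1 library gave 12 to 81 genes higher and 24 to 153 lower. The other settings stayed within 1.5 times: 103 and 165 by DESeq2, 61 and 109 by limma-voom, 74 and 121 with RLE scaling or with a stricter filter, 65 and 132 without a low-count filter, and 70 and 118 without robust estimation. Dropping libraries leaves fewer residual degrees of freedom, and beyond that the cause was not tested. Usp40 kept its direction and its call in each setting run, with a log2 change of -1.25 to -1.06 when 1 library was left out. Of 66 called genes followed across the settings, 21 were still called with only 6 libraries, 20 without siRNA 1 replicate 3 and 23 without control replicate 2. Hint1, which was not called, had a log2 change of -0.00039 without a low-count filter, beside 0.01, and -0.098 to 0.14 when 1 library was left out. Against siRNA 2, DESeq2 also called Septin2_1 and Slc7a6 (adjusted p = 0.0273 and 0.0429) and did not call Kbtbd8 (adjusted p = 0.105).

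With the replicate block, 87 genes were higher and 139 lower, the log2 change of Usp40 was -1.17, and Myc and Kbtbd8 lost their calls (adjusted p = 0.0582 and 0.0568). Same-numbered siRNA 1 and control libraries correlated in their deviations at 0.427, 0.131 and -0.087, so the numbers were not taken to pair the samples, and 3 of the 6 libraries correlated best with their own number.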

Other observations

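Some called genes belong to groups that were put together after their values were seen, and they are given as values without a test of the group. Of 16 tested genes of the WAVE complex, Rac regulators and NCK adaptors, which act in the branching of actin at the cell edge, Nckap1, Cyrib and Nck2 fell and Crk rose, where 1.65% of all genes tested were called. Nckap1, a core subunit of the WAVE complex, had 184, 200.65 and 180.4 CPM with siRNA 1, against 259.7, 268 and 274 CPM in the control (log2 change -0.51, adjusted p = 0.00257 by edgeR). Nck2, an adaptor that binds phosphorylated nephrin, had 24.5, 21.9 and 24.1 CPM with siRNA 1, against 34.3, 36.3 and 35.4 CPM in the control (log2 change -0.59, adjusted p = 0.00325 by edgeR). The groups did not overlap for either gene. With siRNA 2 their log2 changes were 0.08 and 0.21 (adjusted p = 0.379 and 0.0805 by edgeR), and both were lower with siRNA 1 than with siRNA 2 (adjusted p = 0.000264 and 0.000131 by edgeR). Nckap1 and Nck2 kept their calls in all 6 fits that left out 1 library. The median log2 change of the 16 genes was 0.06, beside 0.01 for all genes tested.

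Of 21 tested genes of solute carrier family 35, many of which carry nucleotide sugars into the Golgi and the endoplasmic reticulum, 4 fell and 0 rose, where 1.03% of all genes tested fell and 0.627% rose. Slc35f6 had 40.6, 36.96 and 38.8 CPM with siRNA 1, against 66.6, 63.4 and 62.2 CPM in the control (log2 change -0.72, adjusted p = 0.000727 by edgeR), with no overlap. Slc35a3, Slc35b1 and Slc35g1 had log2 changes of -0.37, -0.36 and -0.38 (adjusted p = 0.0276, 0.0312 and 0.0230 by edgeR). The median log2 change of the family was -0.06. Slc35f6 kept its call in all 6 fits that left out 1 library. Slc35g1 lost its call without siRNA 1 replicates 2 or 3 or without control replicate 3 (adjusted p up to 0.136). Slc35a3 lost its call without siRNA 1 replicates 1, 2 or 3 or without control replicate 2 (adjusted p up to 0.146). Slc35b1 lost its call without siRNA 1 replicates 1, 2 or 3 or without control replicates 1 or 2 (adjusted p up to 0.137).

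Tnfrsf22 and Tnfrsf23, mouse decoy receptors of the death ligand TRAIL, rose by 0.53 and 0.42 on the log2 scale (adjusted p = 0.0491 and 0.0306 by edgeR), the calls among 3 tested genes of their family, where 0.627% of all genes tested rose. Tnfrsf23 lost its call without siRNA 1 replicates 2 or 3 or without control replicates 1 or 2 (adjusted p up to 0.155). Tnfrsf22 lost its call without siRNA 1 replicates 2 or 3 or without control replicates 1, 2 or 3 (adjusted p up to 0.191). DESeq2 did not call Tnfrsf22 (adjusted p = 0.0534).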
